A study of Homo sapiens with 15 samples.

Results

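The nuclear tRNA genes described here were the genes of the raw count matrix named TR, a letter for the amino acid, a hyphen and an anticodon, whose letter is not that of glycine, glutamate, aspartate, valine, lysine or histidine, and which do not lie on the mitochondrial chromosome. There were 491 such genes among the 50037 in the table, and 190 of them had any count in the 15 small RNA libraries. The genes to be described were chosen by having a count, so that number is not a result. They held 630139 counts, or 0.4745% of all 132787575 counts. The 154 nuclear tRNA genes of the amino acids left out held 402242 counts, and the 22 mitochondrial tRNA genes held 197571.

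The libraries came from human cells labelled HEK-293, a line grown from embryonic kidney, and the series title names macrophages. In 5 libraries, cells had the lipid products that lipoprotein lipase (LPL) frees from very low-density lipoprotein (VLDL) together with 20 µM GKT136901, an inhibitor of the superoxide-making NADPH oxidases NOX1 and NOX4. In 5 libraries they had these lipid products alone (LPL:VLDL), and in 5 they had VLDL with no such hydrolysis (titled pcDNA:VLDL, with no word on what the pcDNA was). All groups were incubated for 18 h, and replicates 1 to 5 of each group came from experiments 2 to 6, which the labels call batches. The labels do not say whether an experiment was a separate passage of the cells, so a p-value here is set against a spread between libraries that could be technical in part.

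A tRNA carries an amino acid to the ribosome and reads a codon with the 3 bases of its anticodon. RNA polymerase III transcribes nuclear tRNA genes, which in humans are present in many copies. The transcript is trimmed, given a CCA tail and modified at many bases, and a few kinds have an intron that the tRNA splicing endonuclease removes. Small RNA libraries hold tRNA mainly as fragments, since full-length tRNA is folded, modified and longer than the usual insert. A count per gene does not say whether a read came from a mature tRNA, a precursor or a fragment.

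Depth was 5.08 M to 9.76 M counts per library (mean 8.85 M ± 1.15, SD, n = 15), with the lowest in GKT136901 replicate 2. Levels are given as CPM, counts scaled to the size of the library. The limit that a count of 0 allows, 3 counts in a library, came to 0.307 to 0.591 CPM, which covers counting error only. Of 14 genes of myeloid cells taken as markers, 1 (AIF1) was at 0 and the list summed to 78.5 to 122 CPM in experiment 2, against 26.0 to 50.2 CPM in the other 12 libraries. Of 10 genes typical of HEK-293 cells, 5 were at 0 (LIN28B, NEFM, INA, TUBB2B and HOXC10) and the list summed to 0.111 to 1.46 CPM. The markers thus did not bear out the labelled cell type, in libraries made to hold small RNA and not mRNA.

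The genes differed in where reads could be counted. Of the 491 genes, 299 lie on the reference chromosomes of GRCh38 and 185 of these had a count, against 5 of 192 on other scaffolds, chiefly alternate copies of the chromosome 6 region that is dense in tRNA genes. Of 64 genes on reference chromosomes with a same-named copy on another scaffold, 1 had a count (TRA-AGC11-1, with 2 counts over all libraries), against 184 of the 235 without such a copy. None of 19 genes covered over all bases by an exon of another gene had a count, against 181 of 275 with no such exon. The counting assigned no read that mapped to several places or to several genes, so a gene at 0 is not shown to be silent. The 118 genes on chromosome 6 between 25 and 30 Mb included 55 with a count and held 2.95% of the members' counts. The 14 genes on chromosome 14 between 20 and 21 Mb included 13 with a count and held 14.9%. Of the 93894 counts in that chromosome 14 region, 79991 were on TRP-TGG3-2 alone. At the edge of the rule, 6 genes had a single count and 301 had none. The counts fell on 35 of the 37 anticodons found on reference chromosomes. The anticodons without a count were isoleucine GAT and tyrosine ATA.

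Counts were concentrated in a few genes. The gene with most counts held 24.5% of the members' counts, the top 5 held 74.2%, the top 10 held 84.2% and the top 50 held 96.2%. Arginine tRNAs took 26.9% of the members' counts, glutamine 16.3%, proline 16.2%, leucine 12.3%, tyrosine 11.1%, cysteine 5.83% and threonine 5.00%. Serine took 2.07% and isoleucine 1.11%. The other 7 classes each took under 1%, including the initiator methionine tRNA that starts translation (0.522%), the selenocysteine tRNA that reads a UGA stop codon in selenoprotein mRNAs (0.276%) and the methionine tRNA of elongation (0.100%). The classes differed in how many genes on reference chromosomes had a count. These were 8 of 32 for alanine, 2 of 11 for elongator methionine and 4 of 11 for phenylalanine. They were 18 of 26 for arginine, 17 of 20 for proline and 8 of 8 for initiator methionine. A low share is thus not shown to be a low level of the tRNA. In arginine, glutamine and tyrosine a single gene held over 90% of the counts of its amino acid, and TRU-TCA1-1 held 99.1% of the 1741 selenocysteine counts.

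**Figure D1:**
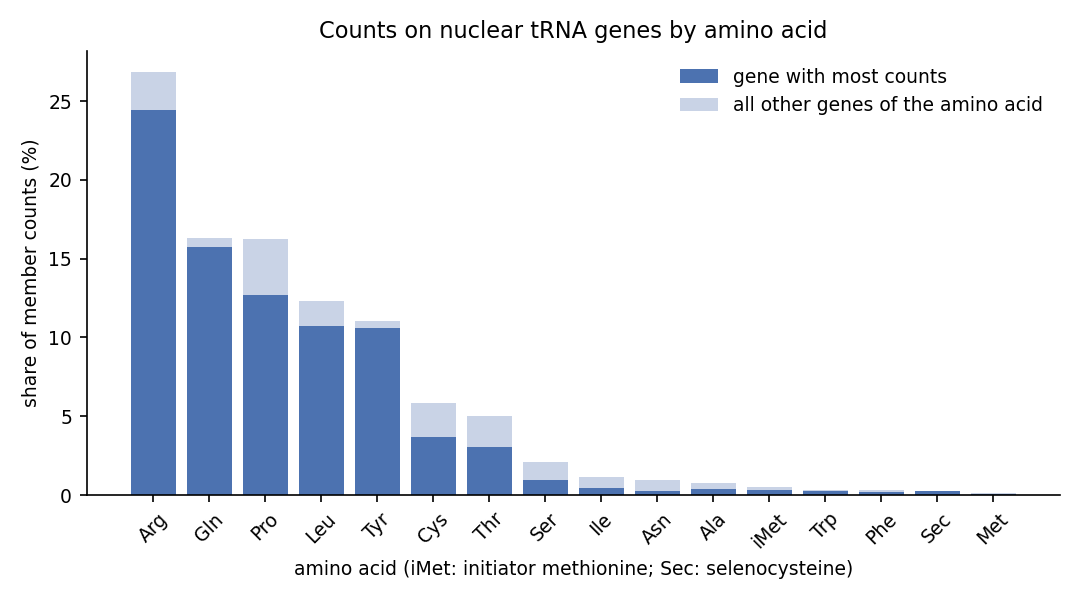
Share of the members' counts (y axis, percent) for each amino acid (x axis) over the 15 libraries, with the gene with most counts in dark blue and all other genes in light blue. The dark part makes up 91.0% of arginine, 96.5% of glutamine and 95.6% of tyrosine, and 25.7% of asparagine.

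Per 100 bases of gene length, the highest mean level over the 15 libraries was that of TRR-ACG2-1, at 1663 CPM. This arginine gene lies at chr3:45688999-45689071 on the minus strand (GRCh38), and its anticodon ACG is read with inosine in its first position. TRQ-CTG1-4, a glutamine gene at chr15:65869062-65869133 on the minus strand, had 1074 CPM per 100 bases. TRP-TGG3-2, a proline gene at chr14:20684016-20684087 on the plus strand, had 861 CPM per 100 bases. TRY-GTA2-1, a tyrosine gene with an intron of 16 bases at chr2:27050782-27050870 on the plus strand, had 705 CPM per 100 bases. TRL-CAA4-1, a leucine gene with an intron of 22 bases at chr1:248873855-248873960 on the plus strand, had 620 CPM per 100 bases. The last of these shares 38 of its 84 exonic bases with an exon of PGBD2, and reads that touched both genes were not assigned. All 5 are annotated as tRNA genes, and counts are of reads on their exons.

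The next genes by level per length were TRC-GCA4-1, a cysteine gene at chr17:38869292-38869363, with 247 CPM per 100 bases, and TRT-AGT1-1, a threonine gene at chr17:8187160-8187233, with 205 CPM per 100 bases. Another cysteine gene, TRC-GCA5-1 at chr15:79744655-79744727, followed with 93.3 CPM per 100 bases. For the remaining amino acids the leading genes ran lower, in CPM per 100 bases. TRS-TGA1-1 (serine) had 58.7, TRI-AAT5-4 (isoleucine) 27.7, TRA-TGC4-1 (alanine) 27.4 and TRX-CAT1-1 (initiator methionine) 23.0. TRN-GTT2-6 (asparagine) had 15.6, TRW-CCA4-1 (tryptophan) 15.4, TRU-TCA1-1 (selenocysteine) 14.9, TRF-GAA1-4 (phenylalanine) 14.3 and TRM-CAT1-1 (elongator methionine) 3.20. The leading genes thus spanned levels per length from 3.20 to 1663 CPM.

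Genes of 1 amino acid that share the number after the anticodon are named so because their mature tRNAs have the same sequence. In 11 of the 29 such families with at least 2 genes on reference chromosomes and a count, a single gene held over 90% of the family's counts. TRR-ACG2-1 had 154075 of the 157700 counts of its 4 genes (97.7%), and the next gene had 3623. TRQ-CTG1-4 had 99056 of the 100070 counts of its 5 genes (99.0%). TRP-TGG3-2 had 93.4% of the 85685 counts of its 5 genes, and TRT-AGT1-1 had 98.6% of the 19643 counts of its 3 genes. In other families the counts were spread over the genes. The gene with most counts held 49.5% in TRP-AGG2 (8 genes), 39.4% in TRN-GTT2 (8 genes) and 35.6% in TRY-GTA5 (5 genes). The initiator methionine family TRX-CAT1 had counts on all of its 8 genes, and TRX-CAT1-1 held 65.3% of them. Reads that map equally well to several genes were not counted, so these shares describe the reads that could be placed and not the output of each gene. Genes of families with 2 or more genes held 63.4% of the members' counts. A read lying wholly in a stretch that is identical among such genes would be dropped, so the counted reads there aligned beyond such a stretch. Whether they came from precursors was not tested.

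**Figure D2:**
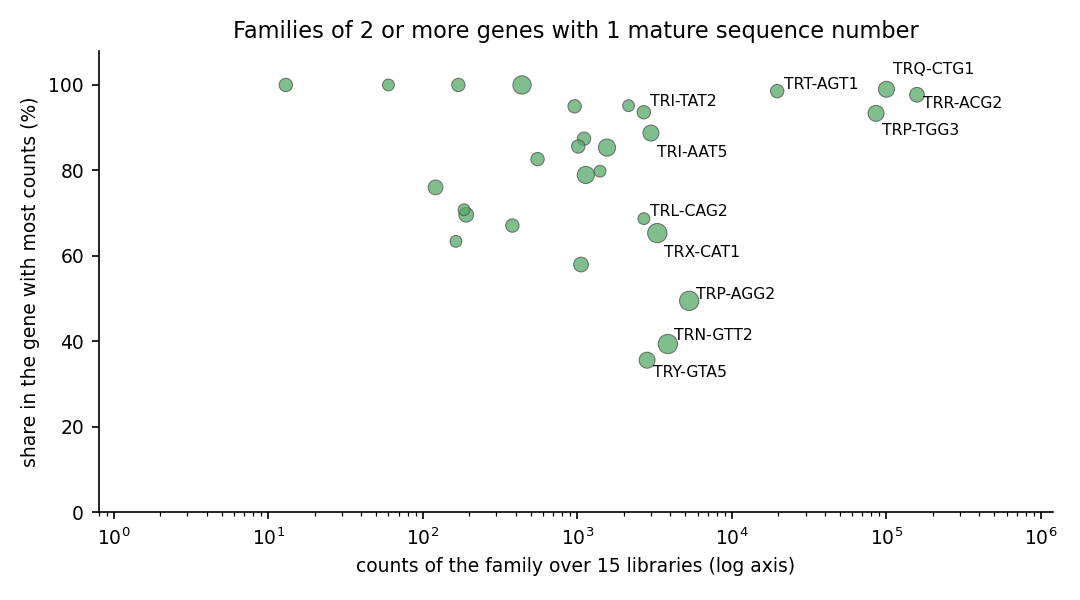
Each point is a family of 2 or more tRNA genes on reference chromosomes with the same mature sequence number; the x axis gives its counts over the 15 libraries on a log axis, the y axis the percent of them in the gene with most counts, and a larger point means more genes. The families TRR-ACG2, TRQ-CTG1, TRP-TGG3 and TRT-AGT1 sit at 93.4% to 99.0%, and TRY-GTA5 sits at 35.6%.

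Summed over all members, the level after scaling by trimmed mean of M values (TMM) was 5037 ± 1662 CPM in GKT136901 libraries, 5103 ± 1812 CPM in LPL:VLDL libraries and 4552 ± 1556 CPM in VLDL libraries (SD, n = 5 each). The differences between the group means were smaller than the spread within any of them. Within experiments, the sum with GKT136901 was above that with VLDL in 5 of 5 and above that with LPL:VLDL in 2 of 5, and the sum with LPL:VLDL was above that with VLDL in 5 of 5. As CPM of the total counts these were 5, 4 and 3 of 5. No test was made of these sums. The experiments differed more. Experiment 2 had 2354 CPM with GKT136901, 2219 CPM with LPL:VLDL, and 2073 with VLDL, and the other 12 libraries ran from 4361 to 6875 CPM without overlap. Mean levels were 6242 ± 223 CPM in experiment 3, 6374 ± 571 CPM in experiment 4, 4844 ± 224 CPM in experiment 5 and 4809 ± 389 CPM in experiment 6, against 2216 ± 141 CPM in experiment 2 (SD, n = 3 each). As CPM of the total counts, experiment 2 ran from 2717 to 2961 CPM and the others from 4172 to 6644 CPM. In RNA from bulk cells, fewer cells of a type and less RNA per cell cannot be told apart. The myeloid genes given above were highest in experiment 2, and their part in the tRNA levels was not tested.

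**Figure D3:**
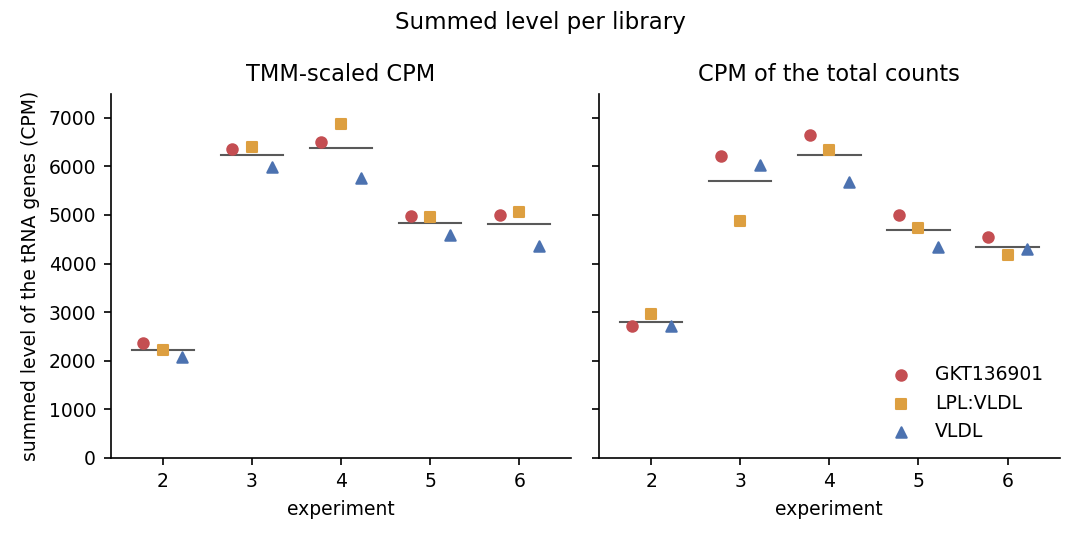
Summed level of the members in each library (y axis, CPM) by experiment (x axis), after TMM scaling at left and as CPM of the total counts at right. Points are libraries of the 3 groups and grey lines the mean of 3 libraries; the 3 libraries of experiment 2 lie below the other 12 in both panels.

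Of the members, 112 passed the filter on low counts, and these held 99.5% of the members' counts. The other 78 with a count had at most 139 counts over all libraries. The experiment was tested by edgeR's quasi-likelihood F test of the 4 experiment terms, beside the treatment. By this test 51 of the 112 members differed among the experiments at an adjusted p under 0.05, where 11.1% of all 4099 genes tested did. Tested members also had a higher median level (5.00 CPM) than all genes tested (1.61 CPM). Among other tRNAs, 26 of 51 tested nuclear genes and 7 of 14 mitochondrial genes passed. For 87 of the 112 members the mean was lowest in experiment 2, against 24.4% of all genes tested. The same held for 40 of the 51 other nuclear tRNA genes tested and for 3 of the 14 mitochondrial ones. The summed level of the other nuclear tRNA genes was 1669 to 1709 CPM in experiment 2 and 2551 to 4578 CPM elsewhere, so the low level was not particular to the members. All 3 libraries of experiment 2 lay below the other 12 for 42 members, against 4.64% of all genes tested, and above them for 1 member, against 3.32%. With CPM of the total counts 21 members (18.8%) lay below, against 1.59% of all genes, and 1 member above, against 8.98%. TMM factors were 1.16 to 1.34 in experiment 2. Elsewhere they ran from 0.765 in LPL:VLDL replicate 2, of experiment 3, to 1.03 in GKT136901 replicate 3. These counts describe the tested members and are not a test of the class.

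Arginine tRNAs called among experiments included the most abundant member. TRR-ACG2-1 had 323 CPM with GKT136901, 334 CPM with LPL:VLDL, and 282 with VLDL in experiment 2. In experiment 3 it had 1787, 1608 and 1528 CPM in the same order of groups, and in experiment 4 it had 1682, 1916 and 1597 CPM. In experiments 5 and 6 its 6 libraries lay between 1033 and 1288 CPM. The libraries of experiment 2 were the lowest, those of experiments 5 and 6 lay in the middle, and those of experiments 3 and 4 were the highest, with no overlap between these 3 sets (adjusted p = 1.01e-13). The highest mean of an experiment was 5.53 times the lowest. Of 10 arginine genes tested, 5 were called, and all 5 were lowest in experiment 2.

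The leading glutamine, proline and leucine genes were also lowest in experiment 2. TRQ-CTG1-4 averaged 325 ± 17.3 CPM there, 1074 ± 39.8 and 1047 ± 106 CPM in experiments 3 and 4, and 724 ± 64.5 and 697 ± 129 CPM in experiments 5 and 6 (SD, n = 3; adjusted p = 3.96e-10). TRP-TGG3-2 had 322 CPM with GKT136901, 312 CPM with LPL:VLDL, and 313 with VLDL in experiment 2, and between 497 and 898 CPM in the other libraries (adjusted p = 7.61e-06). Its 3 libraries of experiment 2 were thus nearly equal across treatments while the ranges of experiments 3, 4 and 6 overlapped. The range of experiment 5, 602 to 650 CPM, overlapped those of experiments 4 and 6. TRL-CAA4-1 averaged 280 ± 32.0 CPM in experiment 2 and 679 ± 45.8 CPM in experiment 4 (SD, n = 3; adjusted p = 3.25e-05), with 385 CPM for LPL:VLDL in experiment 3, where the GKT136901 library had 790 CPM and the VLDL library 747 CPM. Called genes numbered 4 of 7 for glutamine, 7 of 13 for proline and 5 of 11 for leucine, all lowest in experiment 2.

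The tyrosine genes went different ways among the other experiments. TRY-GTA2-1 averaged 249 ± 10.6 CPM in experiment 2, 485 ± 13.0 and 485 ± 7.94 CPM in experiments 3 and 4, and 678 ± 38.0 and 676 ± 93.4 CPM in experiments 5 and 6 (SD, n = 3; adjusted p = 1.20e-08). TRY-GTA5-4, a tyrosine gene with an intron of 21 bases at chr14:20663192-20663285, instead had its highest values in experiments 3 and 4. It had 11.3 CPM with GKT136901, 18.4 CPM with LPL:VLDL, and 14.3 with VLDL in experiment 3, and 2.41 to 4.69 CPM in the 6 libraries of experiments 5 and 6 (adjusted p = 4.20e-06). Of 7 tyrosine genes tested, 6 were called. The 5 of them other than TRY-GTA2-1 all had higher means in both experiments 3 and 4 than in both 5 and 6. The ratio of the raw counts of TRR-ACG2-1 and TRY-GTA2-1 needs no scaling. It gives their change relative to each other and not the direction of either gene. TRR-ACG2-1 had 1.14 to 1.40 counts for each count of TRY-GTA2-1 in experiment 2, 3.18 to 3.90 in experiments 3 and 4, and 1.63 to 1.87 in experiments 5 and 6.

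Cysteine genes called among experiments were not lowest in experiment 2. TRC-GCA4-1 had 155 CPM with GKT136901, 133 CPM with LPL:VLDL, and 83.9 with VLDL in experiment 2. Its libraries in experiment 4 had 367, 399 and 186 CPM in the same order, and the 6 libraries of experiments 5 and 6 lay between 98.7 and 113 CPM (adjusted p = 8.11e-08). TRC-GCA5-1 followed it with 55.6 to 72.5 CPM in experiment 2, 89.1 to 116 CPM in experiments 3 and 4, and 28.1 to 51.1 CPM in experiments 5 and 6 (adjusted p = 8.07e-08). The 3 ranges of this gene do not overlap. TRC-GCA6-1, at chr3:132229100-132229171, was the member whose 3 libraries in experiment 2 all lay above the other 12. It had 32.3 CPM with GKT136901, 31.0 CPM with LPL:VLDL, and 22.8 with VLDL there, against 2.65 to 20.2 CPM elsewhere (adjusted p = 2.09e-07). Against TRC-GCA4-1, which has the same anticodon, it had 0.208 to 0.272 counts for each count in experiment 2 and 0.0268 to 0.0861 in the other experiments. In all, 4 of 8 tested cysteine genes were called.

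**Figure D4:**
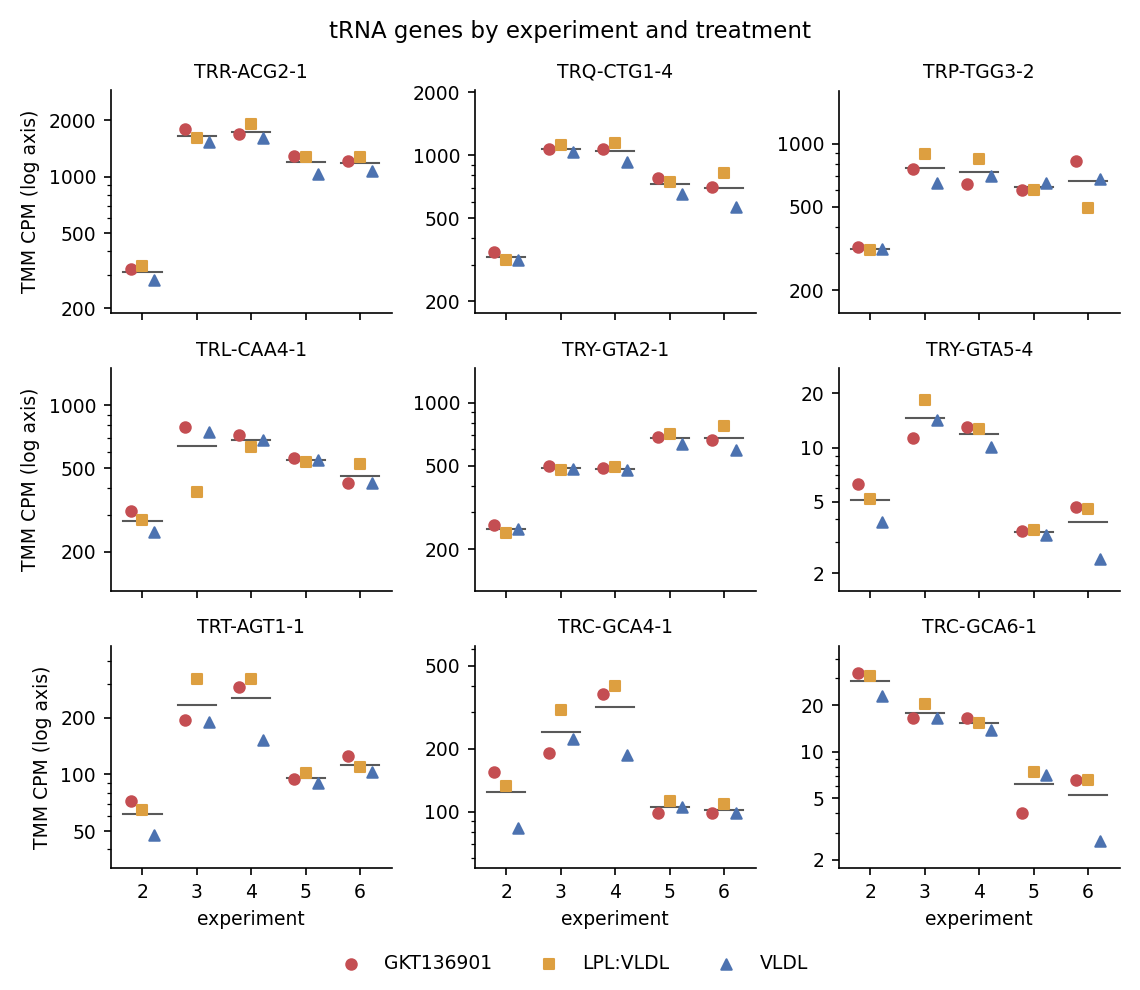
TMM-scaled CPM (y axes, log) of 9 tRNA genes in each library by experiment (x axis), with 1 point per library coloured by treatment and grey lines at the mean of 3 libraries. TRR-ACG2-1 averages 313 CPM in experiment 2 and 1187 to 1732 CPM in the others; TRY-GTA2-1 is highest in experiments 5 and 6, TRY-GTA5-4 in experiments 3 and 4, and TRC-GCA6-1 in experiment 2.

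Threonine tRNAs had 5 of 10 tested genes called, all lowest in experiment 2. TRT-AGT1-1 had 72.1 CPM with GKT136901, 64.8 CPM with LPL:VLDL, and 47.7 with VLDL in experiment 2, against 193, 321 and 190 CPM in experiment 3 and 291, 320 and 153 CPM in experiment 4. The 6 libraries of experiments 5 and 6 had 90.1 to 125 CPM (adjusted p = 1.67e-09). Called genes numbered 3 of 10 for serine, 3 of 8 for isoleucine, 4 of 9 for asparagine, 2 of 5 for alanine, 2 of 4 for initiator methionine and 1 of 4 for phenylalanine. None of the 3 tested tryptophan genes, the 2 elongator methionine genes or the selenocysteine gene TRU-TCA1-1 was called, with adjusted p of at least 0.246 in edgeR's test. TRW-CCA4-1 had 11.6 to 12.6 CPM in experiment 2 and 6.23 to 16.7 CPM in the others, and so overlapped them.

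Over the 51 called members, the highest mean of an experiment was a median of 3.14 times the lowest, with a range of 1.76 to 8.41 (the ratio cannot be formed for TRY-GTA6-1_1, on another scaffold, which was at 0 in an experiment). In 42 of the 51 the lowest mean was in experiment 2. Both called and lowest in experiment 2 were thus 37.5% of the tested members, against 5.37% of all genes. In 33 of the 51 both experiments 3 and 4 were above both 5 and 6, in 5 both were below, and 13 had neither order. Of the 61 tested members not called, 26 had 3 and 4 above, 5 had them below and 30 had neither order. Over all genes, 3 and 4 were above in 51% of the 455 called for experiment and in 22.7% of the 4099 tested. They were below in 27.5% of the 455 and in 27.2% of the 4099. With experiment 2 left out, a setting chosen after seeing the data, 17 of 116 tested members were called, where 3.764% of 3852 genes were. Of these 17, 16 had also been called with all experiments, 15 were higher in experiments 3 and 4 than in 5 and 6, and TRY-GTA2-1 had the opposite order. The order of all genes called in this setting was not counted.

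The first treatment comparison asks what the lipid products freed by LPL change against VLDL. No member was called in LPL:VLDL against VLDL by edgeR, where 0% of the 4099 genes tested were called. With the experiment as a block, no member was called and 0.0244% of genes were. At an unadjusted p under 0.05 there were 2 members (1.79%), against 1.88% of all genes, and with the block 13 (11.6%), against 4.2%. Of the 13, 11 were higher with LPL:VLDL. The median log2 difference of the 112 members was 0.17, against 0.01 for all genes tested, and 74 members (66.1%) were above 0, against 50.7% of all genes. Without TMM factors the median over all genes moved to -0.11 and the members' median to 0.01, with 56 members above 0. The members' median also turned to -0.03 without LPL:VLDL replicate 2 and to -0.01 without VLDL replicate 1.

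The lowest p with the block belonged to the threonine gene TRT-AGT1-1. It averaged 183 ± 126 CPM in LPL:VLDL and 117 ± 55.4 CPM in VLDL libraries (SD, n = 5 each). From experiment 2 to experiment 6 the LPL:VLDL libraries had 64.8, 321, 320, 102 and 109 CPM, against 47.7, 190, 153, 90.1 and 103 CPM with VLDL. After TMM scaling LPL:VLDL was higher in 5 of 5 experiments while the ranges of the groups overlapped. The difference in experiments 5 and 6 was small. In experiment 6 the raw counts were 813 with LPL:VLDL and 859 with VLDL, in libraries of 9.05 M and 8.42 M counts. By total counts the order there was thus the reverse. The blocked log2 difference was 0.50 (SE 0.14) with an adjusted p of 0.80 in edgeR. The cysteine gene TRC-GCA4-1 was higher in 5 of 5 experiments after TMM scaling too, with a blocked log2 difference of 0.47 (SE 0.15, adjusted p = 0.988). Its libraries had 133, 306, 399, 113 and 109 CPM with LPL:VLDL, against 83.9, 224, 186, 106 and 98.9 CPM with VLDL. Its raw counts in these groups were 2206 and 2195 in experiment 3. In experiment 6 they were 815 and 821, again the reverse order by total counts.

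In 14 members (12.5%) LPL:VLDL was higher in every experiment, against 3.44% of all genes, and in 3 (2.68%) it was lower in every experiment, against 3.59%. With CPM of the total counts the 14 became 3. The share over all genes was not counted at that scaling, and without TMM factors 39.6% of all genes were above 0. The 14 included TRR-ACG2-1, whose blocked log2 difference was 0.22 (SE 0.09, adjusted p = 0.988), and the cysteine genes TRC-GCA5-1, TRC-GCA6-1, TRC-GCA14-1 and TRC-GCA2-3. TRC-GCA14-1, at chr17:38861684-38861755, averaged 4.28 ± 2.34 CPM in LPL:VLDL and 2.03 ± 1.42 CPM in VLDL libraries (SD, n = 5 each; blocked log2 difference 1.14, SE 0.40, adjusted p = 0.988). The selenocysteine gene TRU-TCA1-1, at chr19:45478601-45478687, was lower in every experiment. It had 9.38, 9.56, 7.06, 15.5 and 8.85 CPM with LPL:VLDL, against 10.1, 20.4, 10.0, 19.5 and 13.0 CPM with VLDL, and the blocked log2 difference was -0.50 (SE 0.26, adjusted p = 0.988). None of these differences passed the adjustment.

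The serine gene TRS-TGA3-1, at chr6:26312596-26312677, had the lowest p without the block, 0.0267 unadjusted and 0.999 adjusted in edgeR. It had 2.43, 8.73, 7.76, 6.02 and 5.77 CPM with LPL:VLDL, against 17.6, 30.6, 9.40, 4.96 and 3.61 CPM with VLDL. The VLDL libraries of experiments 2 and 3 were the high ones, and LPL:VLDL was higher in 2 of 5 experiments. Its log2 difference was -1.11 (SE 0.48), and -0.53 without VLDL replicate 2. The phenylalanine gene TRF-GAA2-1 averaged 1.64 ± 0.712 CPM in LPL:VLDL and 0.673 ± 0.360 CPM in VLDL libraries (SD, n = 5 each; log2 difference 1.25, SE 0.68, adjusted p = 0.999).

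The second comparison asks what the NOX1/4 inhibitor changes in cells given the lipid products. No member was called in GKT136901 against LPL:VLDL with or without the block by edgeR, and 0% of all genes were called in either fit. At an unadjusted p under 0.05 there was no member without the block, against 2.12% of all genes, and with it there were 2 (1.79%), against 3.68%. The median log2 difference of the members was -0.02, as it was for all genes tested, and 50 members (44.6%) were above 0, against 47.9%. With the block the members' median was 0.02. Without TMM factors it was 0.12, against 0.06 for all genes, and 71 members (63.4%) were above 0, against 56%. With TMM, GKT136901 was higher in every experiment for 5 members (4.46%), against 3.2% of all genes, and lower in every experiment for 2 (1.79%), against 3.44%. With CPM of the total counts the 5 became 13, and the share over all genes was not counted at that scaling.

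The glutamine gene TRQ-CTG1-2, at chr6:27519529-27519600, shares its mature sequence number with the abundant TRQ-CTG1-4. It had 2.90, 6.23, 11.8, 4.00 and 6.98 CPM with GKT136901, against 0.695, 5.26, 4.05, 2.08 and 5.90 CPM with LPL:VLDL, and so was higher in 5 of 5 experiments with overlapping ranges. The blocked log2 difference was 0.94 (SE 0.33, unadjusted p = 0.0078, adjusted p = 1.00 in edgeR). TRQ-CTG1-4 had a blocked difference of -0.04 (SE 0.10) in the same comparison. The arginine gene TRR-CCT2-1, at chr17:75034431-75034503, averaged 9.54 ± 5.20 CPM with GKT136901 and 13.1 ± 6.89 CPM with LPL:VLDL (SD, n = 5 each; blocked log2 difference -0.48, SE 0.22, adjusted p = 1.00). TRA-TGC3-1 (alanine) and TRT-TGT6-1 (threonine), at chr5:181206868-181206939 and chr5:181191687-181191758, had unblocked log2 differences of -0.89 (SE 0.48) and -0.97 (SE 0.54), with adjusted p of 1.00. TRT-TGT6-1 shares 17 of its 72 bases with an exon of LINC01962.

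The third comparison sets the lipid products with the inhibitor against VLDL and shares its libraries with the first and the second. No member was called in GKT136901 against VLDL with or without the block by edgeR, and 0% of all genes were called in either fit. At an unadjusted p under 0.05 there was 1 member (0.893%), against 2.22% of all genes, and with the block there were 5 (4.46%), against 4.32%. Of the 5, 4 were higher with GKT136901. The lower 1 was the serine gene TRS-TGA3-1, also the member found without the block. It averaged 6.68 ± 3.96 CPM with GKT136901 and 13.2 ± 11.1 CPM with VLDL (SD, n = 5 each), but was higher with GKT136901 in 3 of 5 experiments. Its log2 difference was -0.99 (SE 0.48, adjusted p = 0.999 in edgeR), and -0.90 with the block (SE 0.37, adjusted p = 0.997). The median log2 difference of the members was 0.12, against -0.004 for all genes tested, and 81 members (72.3%) were above 0, against 49.6%. It was 0.11 without TMM factors and turned to -0.04 without VLDL replicate 1. GKT136901 was higher in every experiment for 11 members (9.82%), against 3.66% of all genes, and lower in every experiment for none, against 3.83%. With CPM of the total counts the 11 became 4. The share over all genes was not counted at that scaling either, and without TMM factors 44.5% of all genes were above 0.

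TRT-AGT1-1 again had the lowest p with the block. It had 72.1, 193, 291, 94.9 and 125 CPM with GKT136901, against 47.7, 190, 153, 90.1 and 103 CPM with VLDL. After TMM scaling it was thus higher in 5 of 5 experiments, with overlapping ranges. In experiment 3 the raw counts were 960 of 5.08 M with GKT136901 and 1860 of 9.76 M with VLDL. By total counts the order there was narrowly the reverse. The blocked log2 difference was 0.38 (SE 0.14, adjusted p = 0.997 in edgeR). The proline gene TRP-AGG1-1, at chr16:3191989-3192060, had 6.31, 19.3, 25.4, 8.56 and 8.58 CPM with GKT136901, against 3.08, 19.3, 19.1, 5.07 and 6.02 CPM with VLDL. Its blocked log2 difference was 0.52 (SE 0.22, adjusted p = 0.997), and its spread over experiments exceeded the difference between the groups. The cysteine genes TRC-GCA3-1 and TRC-GCA7-1 averaged 4.72 ± 3.62 and 2.22 ± 1.40 CPM with GKT136901, against 2.36 ± 1.30 and 1.12 ± 0.422 CPM with VLDL (SD, n = 5 each). Their blocked log2 differences were 0.88 (SE 0.39) and 0.92 (SE 0.63), each with an adjusted p of 0.997.

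**Figure D5:**
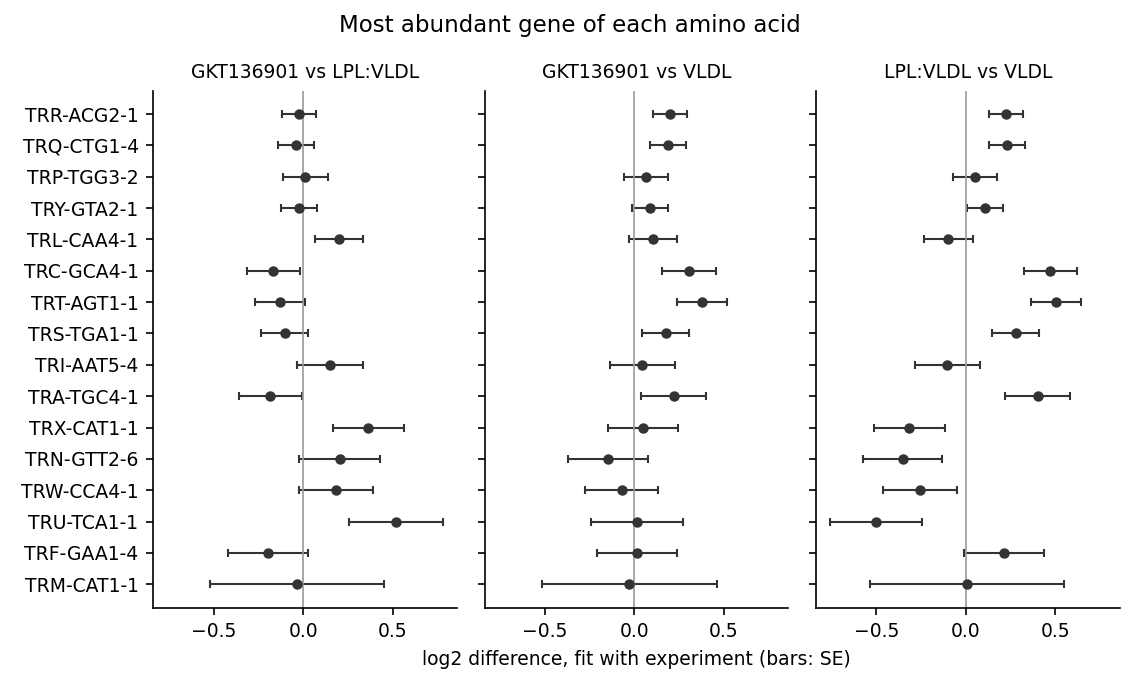
Log2 difference (x axis) of the most abundant gene of each of 16 classes (y axis) in the 3 comparisons, from the fit with experiment as a block; bars are SE. TRT-AGT1-1 is at 0.50 in LPL:VLDL against VLDL, 0.38 in GKT136901 against VLDL and -0.13 in GKT136901 against LPL:VLDL, and none of the values has an adjusted p under 0.05.

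For the 5 most abundant members the SE was small in the fit with the block and TMM scaling. In LPL:VLDL against VLDL their blocked log2 differences ran from -0.10 (TRL-CAA4-1) to 0.23 (TRQ-CTG1-4), with SE of 0.09 to 0.13. In GKT136901 against LPL:VLDL they ran from -0.04 (TRQ-CTG1-4) to 0.20 (TRL-CAA4-1), and in GKT136901 against VLDL from 0.07 (TRP-TGG3-2) to 0.20 (TRR-ACG2-1). Over all tested members the median SE was 0.44 without the block and 0.33 with it in LPL:VLDL against VLDL, so differences of the less abundant genes were poorly bounded. Without the block the smallest SE of any tested member there was 0.27. An SE does not cover the choice of scaling. In that comparison the members' blocked median was 0.14 with TMM and -0.01 with library-size scaling.

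The mRNAs of the tRNA pathway were read as fragments in these libraries and at low depth. Of 64 genes, 59 had a count and 21 were tested, and none was called in any comparison in either fit. Of 15 cytosolic aminoacyl-tRNA synthetases of these amino acids, which charge the tRNAs, 12 were tested. Above 0 were 2 of them in LPL:VLDL against VLDL, 3 in GKT136901 against LPL:VLDL and 1 in GKT136901 against VLDL, with median log2 differences of -0.23, -0.11 and -0.42. Of all genes tested, 50.7%, 47.9% and 49.6% were above 0 in these comparisons. Among experiments, 3 of the 12 were called, against 11.1% of all genes. Of 20 genes of RNA polymerase III and its factors, 5 were tested and none was called. DICER1, an endonuclease that can cut some tRNAs, was the tested gene of the cleavage list. It averaged 1.68 ± 0.606 CPM with GKT136901 and 0.636 ± 0.196 CPM with VLDL (SD, n = 5 each; log2 difference 1.38, SE 0.66, adjusted p = 0.999 in edgeR).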

How the data were processed

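Small RNA was measured in 15 libraries. Values are raw counts for each gene as deposited, not normalized by the authors. Per the labels' protocols, DNase-treated TRIzol RNA went into NEBNext small RNA libraries. The submitters' processing notes name fastp 0.24.0, STAR 2.7.11b and hg38. Per the file headers, featureCounts 2.0.6 counted reads over exons grouped by gene, with no option set for multimapping reads, reads on overlapping genes or strand: the first 2 kinds were dropped and strands were pooled. PCR duplicates could not be removed, so intervals and floors cover counting error only.

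Genes were kept by filterByExpr (minimum count 10, minimum total 15) and 4099 passed (99.7% of counts). Scaling by TMM and quasi-likelihood tests came from edgeR 4.0.16 (R 4.3.3), two-sided, with Benjamini-Hochberg adjustment over all genes tested and calls at 0.05, in a model of the 3 groups with 12 residual degrees of freedom. Adding the experiment gave 8. A level is TMM-scaled CPM, averaged over libraries with its SD; the marker sums are CPM of the total counts. A log2 difference is the first-named group over the second, and its SE was taken from the F statistic. The scripts were tested on simulated data.

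The labels give replicates 1 to 5 of every group a shared experiment, so a number marks a pairing. Residuals from the group mean correlated over genes at r = 0.066 to 0.38 (median 0.11) in the 15 same-experiment pairs. Other pairs reached 0.15 (median -0.07), so the ranges overlapped. Over the tested members, same-experiment pairs had r = -0.05 to 0.46 (median 0.30) and other pairs reached 0.36 (median -0.08). Replicates differed by more than sampling noise (chi-square of 11.1 to 268 for each degree of freedom), and each was kept as its own. Alternatives were other scalings and filters, DESeq2 1.42.0, limma voom (limma 3.58.1) and leaving out libraries or experiments.

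Named genes were the most abundant gene of each amino acid per length, the 5 most abundant of all, the 3 of lowest p in each comparison and fit, and the 6 of lowest p for experiment. TRY-GTA5-4, TRC-GCA6-1, TRC-GCA2-3, TRY-GTA6-1_1 and TRA-AGC11-1 were chosen after their values were seen. The members and the gene lists were chosen with earlier results of these data known. All 299 members on reference chromosomes matched RefSeq by name and coordinates.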

Additional observations from a re-analysis of the deposited data

Results flagged for a closer look

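The values of 28 genes or sums were looked at in each group of 5 libraries, 84 sets in all, and 3 had a library set apart from the others by more than Dixon's limit of 0.71, where chance gives about 1 in 20. TRS-TGA1-1, the leading serine gene, was low in GKT136901 replicate 1, at 27.6 CPM where the other 4 libraries of its group had 49.6 to 57.7 CPM (gap over range 0.731). TRP-TGG3-2, the leading proline gene, was low in VLDL replicate 1, at 313 CPM against 650 to 700 CPM (0.872). TRR-CCT2-1, an arginine gene, was low in VLDL replicate 1, at 3.34 CPM against 9.82 to 12.1 CPM (0.737). All 3 of these libraries are from experiment 2.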

How the results depend on the processing

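No member was called in any of the 3 treatment comparisons under any alternative run: replicate block, DESeq2 size factors, library-size scaling, no filter or a stricter filter, DESeq2, limma voom, or leaving out a library or an experiment. The replicate block, in which paired libraries share an experiment, gave 0 called members in each comparison. At an unadjusted p under 0.05, DESeq2 and voom gave 2 and 1 members in LPL:VLDL against VLDL, 0 and 1 in GKT136901 against LPL:VLDL, and 1 and 0 in GKT136901 against VLDL; with the block they gave 12 and 14, 3 and 4, and 5 and 4. With the block and library-size scaling, a setting added after seeing the data, 10 members (8.93%) passed this unadjusted limit in LPL:VLDL against VLDL. Of all genes 4.73% did. Of the 10 members 3 were higher, against 11 of 13 with TMM. The 51 members called among experiments were 33 with library-size scaling (29.5% of members, against 12.5% of all genes) and 17 without experiment 2 (14.7%, against 3.764%); the cause was not tested. They were 41 to 54 when single libraries were left out, 58 with voom and 54 with DESeq2. The 6 members of lowest p for experiment were called under all of these. Leaving out single libraries moved the members' median log2 difference between -0.03 and 0.32 in LPL:VLDL against VLDL, -0.20 and 0.15 in GKT136901 against LPL:VLDL, and -0.04 and 0.27 in GKT136901 against VLDL. Leaving out experiment 2 gave summed levels of 5708, 5824 and 5171 CPM for GKT136901, LPL:VLDL and VLDL. Depth limits the 78 members with a count that were not tested, which had at most 139 counts over all libraries.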
